A study of Mus musculus with 12 samples.

Results

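The cytosolic ribosome of a mammalian cell is built from ribosomal RNA and a fixed set of ribosomal proteins, named RPS in the small (40S) subunit and RPL in the large (60S) subunit. Their mouse genes were taken here as the rows of the count table whose Entrez ID maps to a symbol made of Rpl or Rps and a number, with an optional final letter a, l or x, together with Rplp0, Rplp1, Rplp2 and Rpsa. Named pseudogenes and the Rps6k kinases were left out. The rule found 83 of the 27179 genes in the table, 51 of the large and 32 of the small subunit, on 19 chromosomes. It used only symbols and no measured value. RefSeq lists 2 of the 83, Rpl6l and Rps4l, as pseudogenes, and the rule kept them.

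RNA was measured by poly(A) sequencing in MC38-idAdpgkG cells, a mouse colon carcinoma line of C57BL/6 origin that carries a doxycycline-inducible and degradable mutant Adpgk fused to turboGFP. All 4 groups received 20 ng/mL mouse interferon gamma (IFNg). The control group had IFNg alone for 51 h, and the doxycycline group had IFNg with 1 µg/mL doxycycline for 51 h. The dTAG-13 group had IFNg for 51 h, with 1 µM dTAG-13 added after 48 h for the last 3 h. dTAG-13 is a small molecule that recruits a ubiquitin ligase to a tagged protein. The doxycycline plus dTAG-13 group had IFNg and doxycycline for 48 h and then 1 µM dTAG-13 for 3 h. Each group had 3 libraries, all technical replicates from 1 biological sample. Every error and adjusted p-value below therefore measures the spread between libraries of one culture, not between cultures.

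Libraries held 22165538 to 32809573 counted reads. Adpgk, the gene of the transgene, measured 160.5 counts per 1000000 reads (CPM) ± 2.49 (SD, n = 3) in control and 1338 ± 20.1 with doxycycline. The labelled colon carcinoma lacked epithelial marker RNA. None of 8 epithelial genes reached a mean of 1 CPM, and Epcam and Cdx2 had no read in any library. The summed level of the 8 genes lay between 0.0628 and 0.712 CPM, and that of 4 leukocyte genes between 0 and 0.0965 CPM. Of 5 stromal and endothelial genes, 3 reached 1 CPM, and their sum was 167 to 182 CPM in control and 202 to 214 CPM with dTAG-13. It was 152 to 159 CPM with doxycycline and 155 to 166 CPM with both agents. Dcn alone averaged 163.7, 199, 142.7 and 150.4 CPM in these groups. Their part in the results was not tested.

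Ribosomal protein genes are among the most highly transcribed genes of dividing cells, and their products are made in nearly equal amounts. Many of their mRNAs begin with a C followed by a run of pyrimidines, the 5′ terminal oligopyrimidine (TOP) motif, through which mTORC1 and LARP1 control their translation. Their transcripts are short, and the mouse genome holds many processed pseudogenes copied from them.

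Start-site sequence was in hand for 61 of the 83 genes, from RefSeq on GRCm38.p6. A run of at least 5 C or T letters that begins with C within 5 bases of the annotated start was found in 29 of these 61 genes, or 47.5%, and in 21.6% of 18458 genes of the table with such a window. CCGGAA, searched on both strands over 250 bases before and 50 bases after the start, lay in 54.1% of the 61 genes and 20.5% of all. TATAAA, searched the same way, lay in 11.5% and 14.5%. The sequences below cover 10 bases before the start and 20 from it, with the run in capitals. The first set are genes with a run, shown because they span large and small responses to dTAG-13.
Rps27, chr3:90213629-90213658, minus strand: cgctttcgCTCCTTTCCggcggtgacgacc
Rpl12, chr2:32961702-32961731, plus strand: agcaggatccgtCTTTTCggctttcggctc
Rps15a, chr7:118116128-118116157, minus strand: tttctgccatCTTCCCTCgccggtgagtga
Rpl38, chr11:114668570-114668599, plus strand: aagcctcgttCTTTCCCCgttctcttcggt
Rplp2, chr7:141447641-141447670, plus strand: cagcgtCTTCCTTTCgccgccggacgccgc
Rps6, chr4:86857348-86857377, minus strand: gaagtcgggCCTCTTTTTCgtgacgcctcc
Rpl28, chr7:4792955-4792984, plus strand: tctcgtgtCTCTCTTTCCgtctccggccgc
The second set lack such a run at the annotated start and also span both ends of the response.
Rplp0, chr5:115559457-115559486, plus strand: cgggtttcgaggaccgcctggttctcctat
Rpl4, chr9:64173377-64173406, plus strand: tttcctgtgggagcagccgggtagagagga
Rps12, chr10:23787190-23787219, minus strand: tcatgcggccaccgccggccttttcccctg
A match is a description of these letters at the annotated start and does not locate the start used in these cells.

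The 83 genes took 2.06% ± 0.0344 (SD, n = 3) of all counted reads in control and 2.04% ± 0.0538 with doxycycline. The share was 2.52% ± 0.0957 with dTAG-13 and 2.73% ± 0.0493 with doxycycline plus dTAG-13. Each of the 6 libraries with dTAG-13, from 2.42% to 2.77%, lay above each of the 6 without it, from 1.973% to 2.102%. Counts are relative to all counted reads, so more RNA from these genes and less RNA from others cannot be told apart here. The 5 genes with the most reads held 40.33% of the reads of the 83, and the 40 with the fewest held 5.99%.

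**Figure D1:**
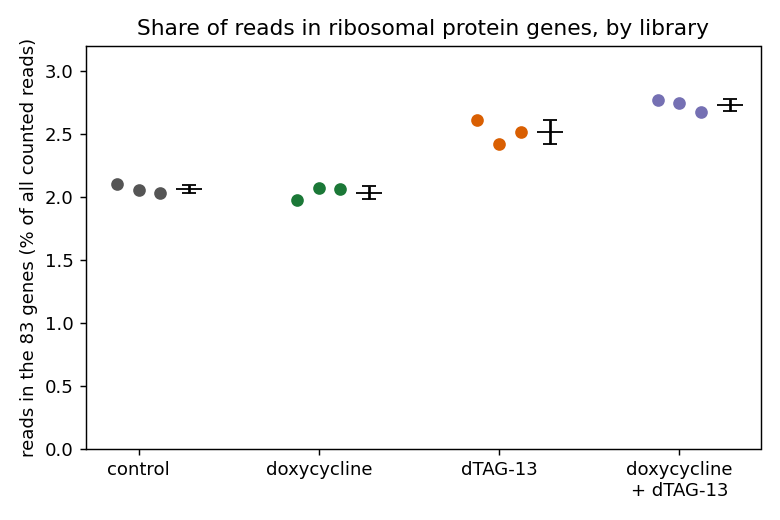
Share of all counted reads in the 83 ribosomal protein genes (vertical axis, percent) in each library of the 4 groups, as points, with the mean and SD of 3 libraries beside them. The 6 libraries with dTAG-13 lie between 2.42% and 2.77%, above the 6 without it.

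Levels were uneven among genes whose proteins are made in nearly equal amounts. Per length, on the scale of CPM per kilobase in control, Rpl8 stood first at 2766, followed by Rplp1 at 2531, Rps15 at 1670 and Rplp0 at 1484. The lowest tested genes were Rpl39 at 0.342, Rpl9 at 7.68 and Rpl31 at 12.6 CPM per kilobase. Rows for copies of the same genes held many reads. The copies below were picked out after their values were seen. Rps27 had 7591 reads over the 12 libraries and its row Rps27rt had 119015. Rpl34 had 14970 and Rpl34-ps1 had 236512. Rpl37 had 46554 and Rpl37rt had 379506. Of the possible 50-base windows of a member's transcript, a median of 52.3% also occurred in a transcript of another gene, and 45 of the 83 genes shared over 50% of their windows. The share was 98.6% in Rps27, 93.3% in Rpl9 and 92.1% in Rpl10, against 7.9% in Rpl8 and 4.5% in Rps3. Across the 79 tested genes the level per length and this share had a Spearman correlation of -0.31, a description over genes of the same libraries. How the authors' counting treated reads that match several places is not given in the sources used here. The levels of members with high shares, and the order of levels, are therefore uncertain, and the part of shared reads in them was not tested.

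A filter on low counts left 79 of the 83 genes for testing. The 4 others are the paralogs Rpl10l, Rpl3l and Rpl39l, whose known sites of expression are testis or muscle, and Rps4l. Rpl39l had no read in any library, Rps4l had 1 in all 12 libraries together, Rpl10l had 2 and Rpl3l had 6. The fifth paralog, Rps27l, a p53 target in other cells, was tested and measured 105 CPM ± 2.62 in control.

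The first question was what 3 h of dTAG-13 did in cells without induced transgene. Ribosomal protein mRNAs were higher. Of the 79 tested genes, 42 were called higher, where 30.0% of the 12910 genes tested were, and 1 was called lower, where 32.1% were (edgeR quasi-likelihood test, Benjamini-Hochberg adjusted p under 0.05). Their median log2 fold change was 0.21, beside 0.02 over all tested genes. The split was 18 of 31 in the small subunit and 24 of 48 in the large subunit. The gene called lower was Rpl28, a large-subunit protein, at -0.17 on the log2 scale (SE 0.0722, edgeR adjusted p = 0.0454).

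Much of this moved with transcript length. The 83 transcripts had a median length of 737 bases, against 2411 over all tested genes, and over 12446 tested genes with a length the Spearman correlation of log2 fold change with length was -0.44, a description across genes. After a correction for length and GC content, fitted in each library over all tested genes, 18 of the 79 were called higher, where 23.1% of all tested genes were, and 10 lower, where 30.7% were. The median fell to 0.03. All 18 were among the 42. The share of members called higher was then close to that of all genes.

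In cells given doxycycline as well, the rise with dTAG-13 was wider. Against doxycycline alone, 73 of 79 genes were called higher (edgeR), where 30.7% of all tested genes were, and 0 were called lower, where 33.4% were. The median log2 fold change was 0.54, beside 0.00 over all tested genes. All 79 values were above 0, from 0.04 to 1.02, where 6500 of all 12910 tested genes were above 0. In the small subunit 30 of 31 were called higher, and in the large subunit 43 of 48. After the length and GC correction 46 were called higher, where 25.2% of all tested genes were, and 2 lower, where 27.4% were, with a median of 0.24. Those 46 were all among the 73, and the 2 called lower were Rpl4 and Rps4x.

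**Figure D2:**
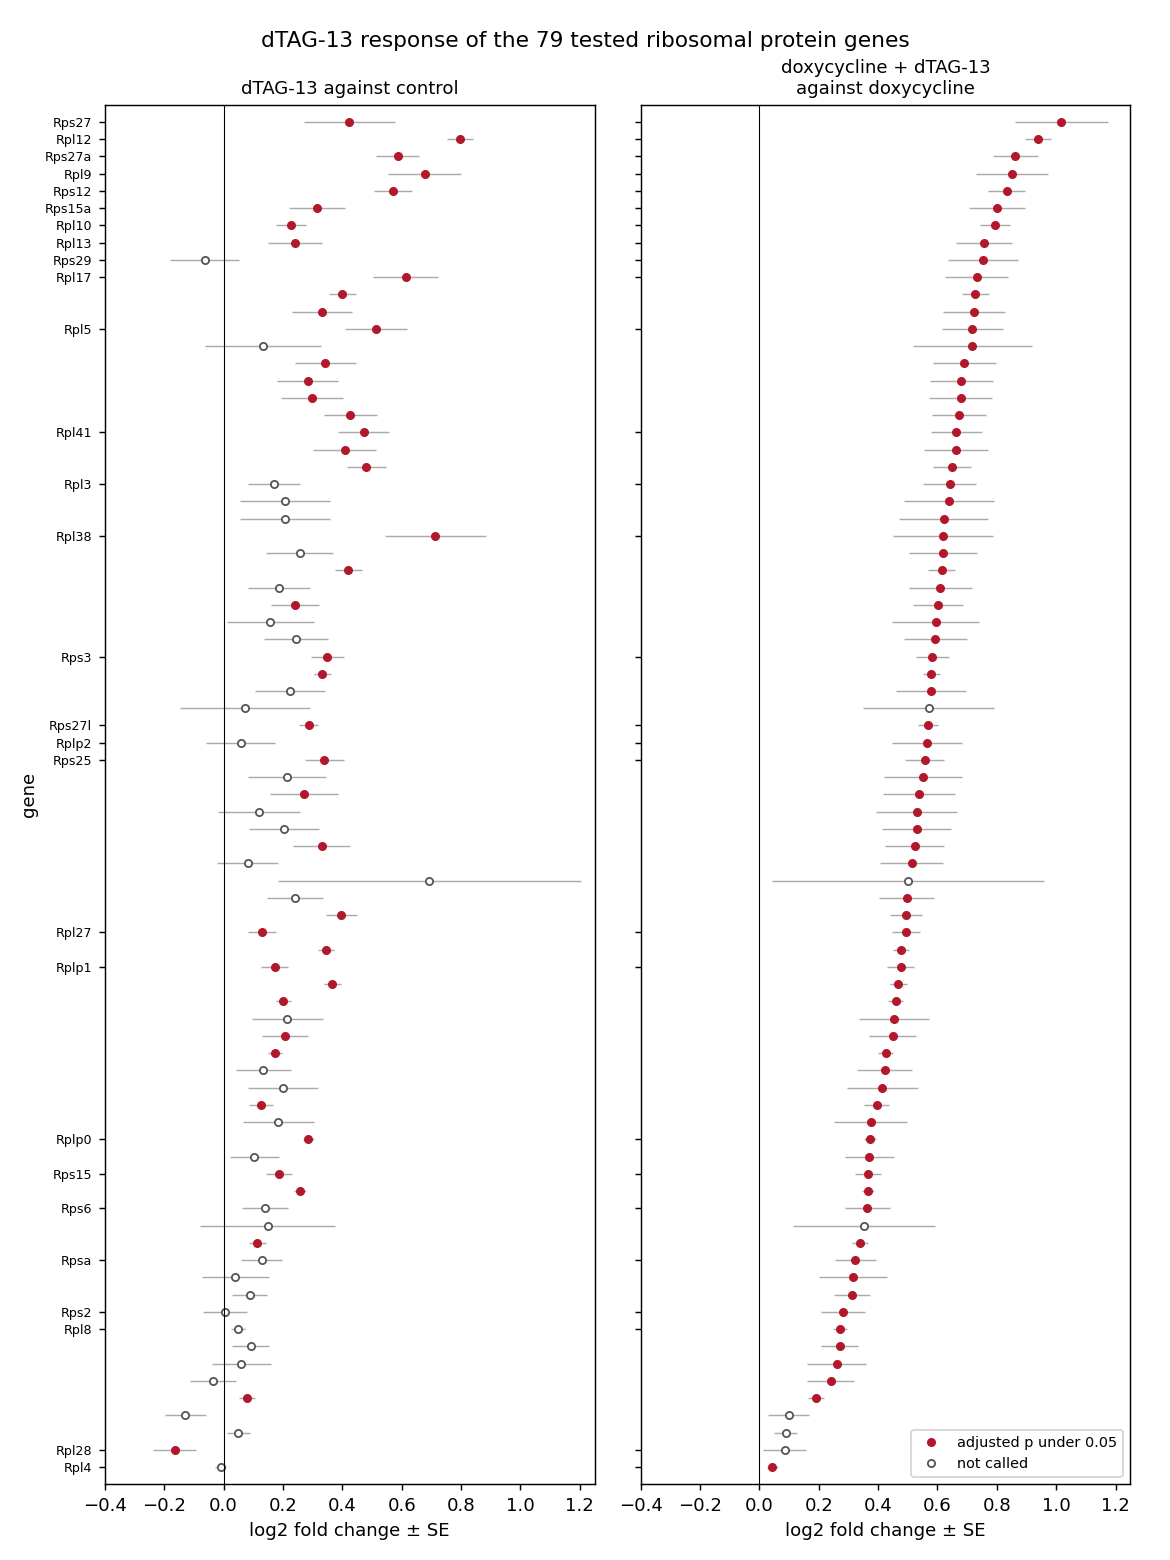
Log2 fold change with its standard error (horizontal axis) for each of the 79 tested genes (rows, in the order of the right panel, with labels for genes named by the rule), for dTAG-13 without doxycycline (left) and on top of doxycycline (right). Filled points passed the edgeR test, 42 higher and 1 lower on the left and 73 higher on the right.

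**Figure D3:**
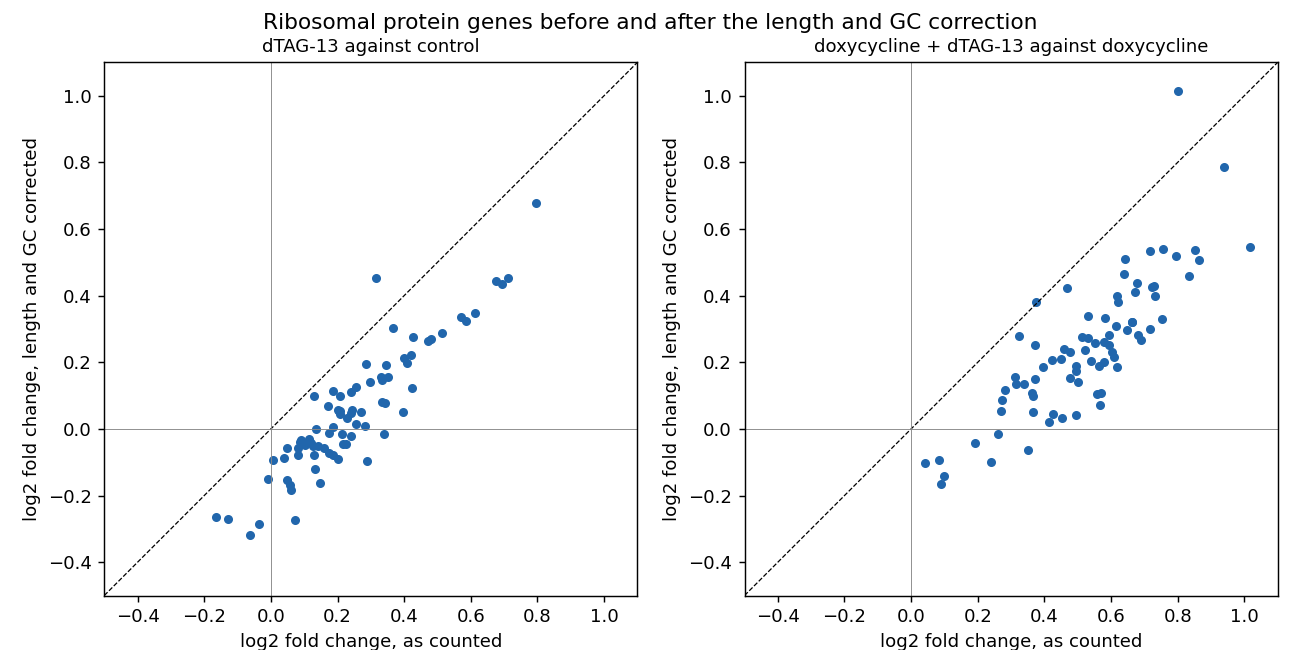
Log2 fold change of each of the 79 tested ribosomal protein genes as counted (horizontal axis) and after the length and GC correction (vertical axis), for both dTAG-13 comparisons, with the line of equality dashed. Most points lie below the line, and the medians go from 0.21 to 0.03 and from 0.54 to 0.24.

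These 2 comparisons share no library. All 42 genes called higher in the first were among the 73 of the second, which is 100% of the first list and 57.5% of the second. The second list held 92.4% of the 79 tested genes, so a nearly full overlap was set by its size. Across the 79 genes their log2 fold changes had a Spearman correlation of 0.69, and of 0.71 after the length and GC correction. The points share their sequence properties, and the value is a description.

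The stalk of the large subunit, which recruits translation factors, is built from Rplp0, Rplp1 and Rplp2 on the base protein Rpl12. Rplp0 measured 1943, 2019 and 2083 CPM in control, 1989, 2029 and 2004 with doxycycline, 2472, 2453 and 2443 with dTAG-13, and 2626, 2634 and 2541 with both. All 6 libraries with dTAG-13 lay above all 6 without it. Its log2 fold change was 0.29 (SE 0.0193, edgeR adjusted p = 5.25e-16) for dTAG-13 against control and 0.37 (SE 0.0193, adjusted p = 1.59e-19) against doxycycline alone. Rpl12 measured 42.3, 41.7 and 38.5 CPM in control and 71.2, 72.6 and 69.0 with dTAG-13, with log2 0.80 (SE 0.0431, edgeR adjusted p = 1.75e-19). With doxycycline it went from 39.5, 39.6 and 40.6 to 81.3, 76.5 and 72.3 CPM when dTAG-13 was added, with log2 0.94 (SE 0.0436, edgeR adjusted p = 1.44e-21). Its groups did not overlap in either case, and the corrected values for length and GC were 0.68 and 0.79. Rplp1 rose by 0.17 and 0.48 in the 2 comparisons, and its corrected values were -0.01 and 0.15. Rplp2 had 0.06, which did not pass the test (edgeR adjusted p = 0.693), and 0.56, which did (adjusted p = 0.00257).

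**Figure D4:**
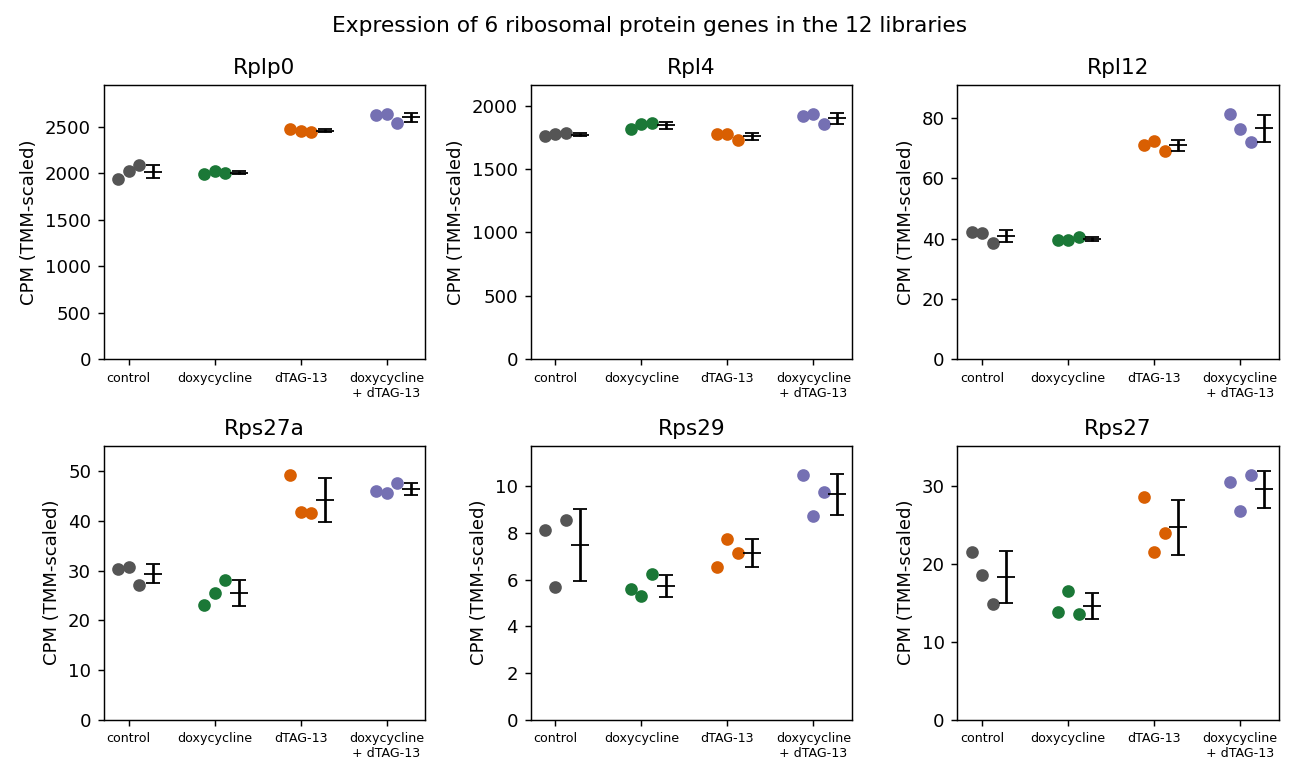
TMM-scaled CPM (vertical axis, from 0) of 6 ribosomal protein genes in the 12 libraries, as points by group, with the mean and SD of 3 libraries. Rplp0 and Rpl12 are higher in all 6 libraries with dTAG-13, while Rpl4 stays between 1729 and 1934 CPM in all 12.

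Genes with the most reads moved little or moderately. Rpl8, in the large subunit, had 0.05 (edgeR adjusted p = 0.0836) for dTAG-13 against control and rose by 0.27 (adjusted p = 3.19e-09) against doxycycline alone. Rps3, a small-subunit protein at the mRNA entry, rose by 0.35 and 0.58. Rpl4, a protein lining the peptide exit tunnel, measured 1759, 1776 and 1785 CPM in control and 1777, 1777 and 1729 with dTAG-13, so the groups overlapped and its value of -0.01 did not pass the test (edgeR adjusted p = 0.662). Against doxycycline alone it rose by 0.04 (adjusted p = 0.0375). After the length and GC correction Rpl4 was called lower in both comparisons, at -0.15 and -0.10.

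Rps27a, which is made as a fusion with ubiquitin, was among the genes that rose most. It measured 30.3, 30.8 and 27.2 CPM in control and 49.2, 41.8 and 41.6 with dTAG-13, with no overlap. It measured 23.0, 25.5 and 28.2 with doxycycline and 46.0, 45.5 and 47.7 with both agents. The log2 fold changes were 0.59 (SE 0.0735, edgeR adjusted p = 2.53e-06) and 0.86 (SE 0.0758, adjusted p = 2.65e-08). Its corrected values were 0.32 and 0.51, and both passed the test. A share of 71.9% of its windows occurred in other transcripts, and the row Rps27a-ps3, with 61879 reads against 12704 for Rps27a, had log2 fold changes of 0.44 and 0.67.

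Among the genes called, the other largest rises for dTAG-13 against control were those of Rpl38 at 0.71, Rpl9 at 0.68, Rpl17 at 0.61 and Rps12 at 0.57. Against doxycycline alone they were those of Rps27 at 1.02, Rpl9 at 0.85, Rps12 at 0.83 and Rps15a at 0.80. Rps27 measured 21.5, 18.5 and 14.9 CPM in control, 13.8, 16.5 and 13.5 with doxycycline, 28.5, 21.6 and 23.9 with dTAG-13 and 30.4, 26.8 and 31.4 with both. Its dTAG-13 libraries lay just above its control libraries, by 21.56 against 21.52 CPM at the nearest. Rps27rt, with more reads, had log2 fold changes of 0.36 and 0.51. Several of these genes are of low count and share most of their windows, as Rps12 does at 85.7% and Rpl17 at 78.7%.

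Rps6, the small-subunit protein phosphorylated by S6 kinase, did not pass the test for dTAG-13 against control at 0.14 (edgeR adjusted p = 0.147) and rose by 0.36 (adjusted p = 0.00263) against doxycycline alone. Rpsa, known also as a laminin receptor, had 0.13 (adjusted p = 0.135) and rose by 0.32 (adjusted p = 0.00258). Rpl41, the smallest protein of the ribosome, rose by 0.47 (adjusted p = 0.00117) and 0.66 (adjusted p = 1.21e-04). Rps27l rose by 0.29 (adjusted p = 3.23e-10) and 0.57 (adjusted p = 9.51e-19), and its corrected values were -0.10, called lower, and 0.07.

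Rpl5 and Rpl11 join 5S ribosomal RNA and, like Rpl23, bind MDM2 when free of the ribosome. Of these 3, only Rpl5 was called for dTAG-13 against control, at 0.51 (SE 0.104, edgeR adjusted p = 0.00224). Against doxycycline alone all 3 rose, by 0.72, 0.62 and 0.26 for Rpl5, Rpl11 and Rpl23. After the length and GC correction, 0 of these 3 were called in the first comparison and 1 was called higher in the second. Of 9 genes mutated in Diamond-Blackfan anaemia, 5 rose in the first comparison and 9 in the second. Over all tested genes 30.0% and 30.7% were called higher. After the length and GC correction, 0 of the 9 were higher and 1 lower in the first. In the second, 5 were higher and 0 lower. The corrected shares over all tested genes were 23.1% higher and 30.7% lower, then 25.2% and 27.4%. Rps19, the most often mutated of the 9, had 0.26 and 0.62 as counted. Rps26, another, had -0.04 and 0.24.

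The 6 genes not called higher against doxycycline alone were Rpl28, Rpl29, Rps4x, Rpl36a, Rpl37a and Rpl39, named here after their values were seen. Their log2 fold changes were 0.09, 0.10, 0.09, 0.57, 0.35 and 0.50. For Rpl39, with 0.209 CPM in control, the count sets the precision.

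Doxycycline alone gave calls in few of the genes. Against control 10 of 79 were called lower (edgeR), where 18.7% of all tested genes were, and 1 higher, where 14.8% were, with a median log2 fold change of -0.06. These shares lay below the background. The median over all tested genes was -0.01. Only 19 of the 79 values were above 0, where 6130 of 12910 were over all tested genes. The median standard error was 0.0896 for the members and 0.054 over all tested genes. The shares called therefore cannot be compared as sizes of effect. Among the genes called, the largest falls were those of Rps29, Rplp2, Rpl10, Rpl13, Rpl27 and Rps2, at -0.38, -0.37, -0.29, -0.28, -0.24 and -0.23. Rpl10, which the ribosome takes up late in assembly, measured 34.7, 33.1 and 32.8 CPM in control and 27.48, 27.07 and 27.96 with doxycycline, with no overlap (SE 0.0519, edgeR adjusted p = 2.51e-05). Rpl4 was the gene called higher, at 0.06 (SE 0.0183, adjusted p = 0.01). The count lower was 4 without control library 1 and 4 without doxycycline library 1.

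Among dTAG-13 cells, doxycycline went with higher values. Of 79 genes, 24 were called higher, where 10.7% of all tested genes were, and 0 lower, where 9.64% were, and the median was 0.20. With the correction 18 were higher, where 9.36% of all were, and 0 lower, where 8.83% were, all 18 among the 24, with a median of 0.12. Among the genes called, the largest rises were those of Rps29 at 0.43, Rpl17 at 0.32, Rps25 at 0.30, Rps12 at 0.28, Rpl10 at 0.28 and Rps15 at 0.27. Against control, doxycycline plus dTAG-13 gave 67 genes called higher, where 32.5% of all tested genes were, and 0 lower, where 33.8% were, with a median of 0.44. Among the genes called, the largest values were 0.93 for Rpl17, 0.90 for Rpl12 and 0.88 for Rpl9. Rpl39, at 1.07, did not pass the test (edgeR adjusted p = 0.0554). After the length and GC correction 37 were higher, where 25.2% of all were, and 2 lower, where 32.2% were.

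The interaction asks whether the dTAG-13 difference was larger with doxycycline than without it. It was called higher in 21 of 79 genes (edgeR), where 13.2% of all tested genes were, and lower in 0, where 9.64% were, with a median of 0.26. After the length and GC correction 18 were higher, where 15.2% of all tested genes were, and 0 lower, where 7.33% were; 17 of the 18 were among the 21. The dTAG-13 difference was the larger with doxycycline in 77 of the 79 genes, and in 6612 of all 12910 tested genes. Rps29, a small zinc-binding protein of the small subunit, measured 8.13, 5.70 and 8.55 CPM in control, 5.60, 5.30 and 6.25 with doxycycline, 6.52, 7.72 and 7.13 with dTAG-13 and 10.5, 8.72 and 9.74 with both. Its interaction was 0.82 (SE 0.166, edgeR adjusted p = 3.85e-04), and its dTAG-13 value without doxycycline was -0.06 (adjusted p = 0.659). Among the genes called, Rpl10 followed at 0.57 (SE 0.071, adjusted p = 8.09e-08), then Rpl13 at 0.52, Rps15a at 0.49, Rpl3 at 0.47 and Rpl27 at 0.36.

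Members deviated together between libraries of the same group. Of 79 genes, 65 had their highest value of the 3 dTAG-13 libraries in library 1 and 63 had their lowest in library 2, where 34.0% and 33.6% of all tested genes did. In doxycycline library 1, 62 of 79 were lowest, where 31.7% of all were. The median deviation of the members from their group mean ran from -0.09 to 0.08 (log2) over the 12 libraries. The median standard error of a member for dTAG-13 against control was 0.0884, beside 0.054 over all tested genes. The calls on single members are therefore not separate observations of the treatment.

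The members were also split by the start-site run. Among the 58 tested members with a start window, 27 of 29 with a run and 26 of 29 without were called higher when dTAG-13 was added to doxycycline, with medians of 0.53 and 0.56. For dTAG-13 against control the counts were 17 and 15 and the medians 0.22 and 0.23, and 1 member with a run was called lower. Over all tested genes 30.0% were called higher and 32.1% lower in that comparison. The difference between the sets was not tested. Members sharing at most 50% of their windows gave 32 of 34 called higher against doxycycline alone, and those sharing more gave 41 of 45. After the length and GC correction 24 of 34 and 22 of 45 were higher, and 1 was lower in each set. Over all tested genes 25.2% were then called higher and 27.4% lower. The difference between these 2 sets was not tested either. Of 36 rows named as pseudogenes or retrocopies of ribosomal protein genes, 28 were tested. Against doxycycline alone 27 of them were called higher as counted, where 30.7% of all tested genes were. After the length and GC correction Rpl34-ps1 had 0.20 and passed the test (edgeR adjusted p = 2.98e-06). Rpl37rt and Rps27rt both had -0.03 and did not pass (edgeR adjusted p = 0.621 and 0.402). Corrected calls over all 28 are not given here.

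A list of 7 ribosomal proteins and close relatives lay outside the rule. All 7 rose against doxycycline alone, among them Fau at 0.63, Rps3a1 at 0.43, Rack1 at 0.42, Rpl36al at 0.44, Rpl22l1 at 0.99 and Rpl7l1 at 0.31. Fau encodes a ribosomal protein fused to a ubiquitin-like domain, and Rack1 is a scaffold on the small subunit. For dTAG-13 against control 2 of the 7 rose, Rack1 at 0.33 and Rpl22l1 at 0.77. With the correction 4 were higher in the first of these comparisons, and 1 was higher and 2 lower in the second. Over all tested genes 30.7% were called higher in the first and 30.0% in the second. Corrected, 25.2% were higher in the first, and 23.1% were higher and 30.7% lower in the second.

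Other parts of the translation machinery had calls in both directions, as all tested genes did. Over all tested genes 30.0% were called higher and 32.1% lower for dTAG-13 against control, then 30.7% and 33.4% against doxycycline alone. Corrected for length and GC, these shares were 23.1% and 30.7%, then 25.2% and 27.4%. Of 20 further mRNAs with TOP-type starts, mostly elongation and initiation factors, 8 rose and 9 fell for dTAG-13 against control, and 12 rose and 6 fell against doxycycline alone. Corrected for length and GC, these counts were 2 and 13, then 6 and 9. Eif3a, a scaffold of initiation factor 3, fell by 0.75 and by 0.66. Eef2, the translocation factor, fell by 0.59 for dTAG-13 against control, and Pabpc1, the poly(A)-binding protein, fell by 0.57 against doxycycline alone. With doxycycline alone Hnrnpa1 and Npm1 fell by 0.25 and by 0.21. Of 22 other initiation factors, 7 rose and 9 fell, then 15 rose and 7 fell, and corrected counts were 5 and 12, then 12 and 7. Eif4a2, an RNA helicase, rose by 0.75 for dTAG-13 against control, and Eif4g1, the scaffold of the cap complex, fell by 0.69 and by 0.63. Eif5b, which joins the subunits, fell by 0.64 against doxycycline alone. With doxycycline alone 19 of these 22 fell, among them Eif1 by 0.29 and Eif3b by 0.26. Over all tested genes 18.7% were called lower with doxycycline alone.

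Of 18 genes of mTORC1 signalling and TOP mRNA control, 6 rose and 11 fell for dTAG-13 against control, and 5 rose and 11 fell against doxycycline alone. Corrected for length and GC, 0 were higher and 10 lower in the first, and 5 higher and 9 lower in the second. Over all tested genes 30.0% were called higher and 32.1% lower in the first, then 30.7% and 33.4% in the second. Corrected, these shares were 23.1% and 30.7%, then 25.2% and 27.4%. Larp1, which binds TOP mRNAs, fell by 0.82 and by 0.73. Eif4ebp2 fell by 0.73 in the first and Larp1b by 0.69 in the second. Akt1s1 and Rheb fell by 0.19 and by 0.17 with doxycycline alone. Of 7 chaperones of ribosomal proteins, 2 rose and 2 fell, then 6 rose and 1 fell, with corrected counts of 1 and 3, then 4 and 1. Pdcd2 rose by 0.54 and its relative Pdcd2l by 0.51 against doxycycline alone, and Heatr3 fell by 0.24 and Pdcd2l rose by 0.31 for dTAG-13 against control. Grwd1 and Pdcd2 fell by 0.35 and by 0.28 with doxycycline alone.

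Subunits of 3 other housekeeping complexes were counted beside the members, of which 92.4% were called higher against doxycycline alone. Over all tested genes 30.7% were called higher and 33.4% lower. Of 77 tested mitochondrial ribosomal proteins, 69 (89.6%) were called higher and 1 lower in that comparison, with a median of 0.35. Of 74 nuclear subunits of oxidative phosphorylation, 69 (93.2%) were higher and 1 lower, with a median of 0.46. Of 34 proteasome subunits, 30 (88.2%) were higher and 4 lower, with a median of 0.28. After the length and GC correction 50, 42 and 26 genes of these 3 groups were called higher, beside 46 of the 79 members. Called lower were 3, 8 and 3, beside 2. Over all tested genes 25.2% were called higher and 27.4% lower. The medians were 0.17, 0.13 and 0.15, beside 0.24 for the cytosolic ribosomal proteins. For dTAG-13 against control, as counted, 63.6%, 74.3% and 58.8% of these groups were called higher, beside 53.2% of the members. In the interaction, as counted, these shares were 61.0%, 58.1% and 76.5%, beside 26.6%. Over all tested genes 30.0% were called higher for dTAG-13 against control and 13.2% in the interaction. The interaction medians were 0.18, 0.21 and 0.18, beside 0.26 for the members. The median standard error of the interaction was 0.1256 for the members and 0.0771 over all tested genes. The shares called therefore cannot be compared as sizes of effect. No test compared the groups.

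**Figure D5:**
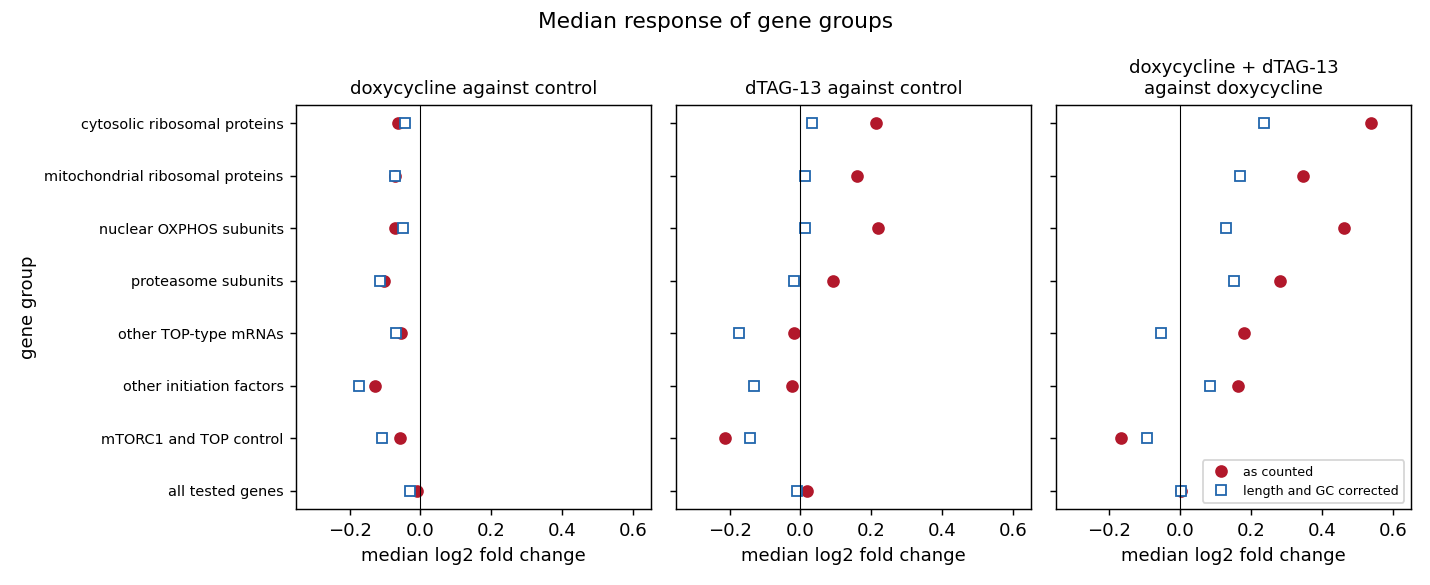
Median log2 fold change (horizontal axis) of 8 sets of genes in 3 comparisons, as counted (filled) and after the length and GC correction (open). Against doxycycline alone the median of the ribosomal protein genes is 0.54 as counted and 0.24 corrected.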

How the data were processed

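Raw counts per Entrez ID in 12 libraries were deposited by the authors as one table. Per the submitters' processing notes, bcl2fastq 2.17, featureCounts and the build mm10 were used, and per the file headers the alignments came from Subread. For the annotation, the strand setting and reads with several matches, the settings were not given in the sources used here. Symbols came from RefSeq (25275 IDs) and GENCODE M21 (18), and 1886 IDs had none.

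Counts were tested in R 4.3.3 with edgeR 4.0.16 (quasi-likelihood, robust) over all 4 groups, after filterByExpr, on TMM factors of 0.9647 to 1.0349, with Benjamini-Hochberg adjustment over 12910 genes and calls at an adjusted p under 0.05. CPM is per 1000000 reads in tested genes, TMM-scaled. The length and GC correction removed, in each library, splines of length and of GC with 5 degrees of freedom each. They were fitted to the deviation of log2 CPM (prior count 2) from the mean of the gene over the 12 libraries. Length is that of the coding transcript of median length, which is 5130 bases for Rps15a and 3706 for Rps20, so their corrected values are uncertain. Alternatives were RLE factors, library size only, scaling without the members, DESeq2 1.42.0, no filter, 1 CPM in 3 libraries, only the groups compared, a replicate block and leaving out each library. The code was tested on simulated data. The members, lists and tests were chosen with earlier results of these data known. The rule for naming genes took the stalk genes Rplp0, Rplp1 and Rplp2, Rpsa, Rps6, Rpl41, Rps27a, the paralogs, the 5 members of highest CPM, up to 6 called members per side in each comparison, 2 called genes per list and comparison, and the genes just outside the rule. Some items are not reported here.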

Additional observations from a re-analysis of the deposited data

Results flagged for a closer look

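For 11 named members the dTAG-13 log2 fold change itself differed between cells with and without doxycycline (edgeR interaction, adjusted p under 0.05). It was higher with doxycycline in each. Of all 79 tested members 21 were called higher in this test and 0 lower, so that shared direction was fixed. Over all tested genes 13.2% were called higher and 9.64% lower. Rps29, Rpl10, Rpl13, Rps15a, Rpl3 and Rpl27 met the naming rule by passing this same test, so their count is no added support. The differences were 0.82 for Rps29, 0.57 for Rpl10, 0.52 for Rpl13, 0.49 for Rps15a, 0.47 for Rpl3, 0.36 for Rpl27, 0.30 for Rplp1, 0.28 for Rps27l, 0.26 for Rps12, 0.22 for Rpl8 and 0.087 for Rplp0. Doxycycline alone gave Rps29, Rpl10, Rpl13 and Rpl27 a log2 fold change of -0.38, -0.29, -0.28 and -0.24.

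In this interaction test 13.2% of all tested genes were called higher and 9.64% lower. Among the other lists, Hnrnpa1, Npm1, Eif1, Eif3b, Akt1s1, Rheb, Grwd1 and Pdcd2 were named for a fall with doxycycline alone. Such a fall raises the interaction value, so for these genes a value above 0 is no added support. The same test was passed by 14 named genes of the other lists, 13 of them with a value above 0. These were 0.394 for Rpl36al, 0.361 for Grwd1, 0.352 for Eif1, 0.335 for Pdcd2, 0.284 for Npm1, 0.268 for Hnrnpa1, 0.262 for Rpl7l1, 0.239 for Eif3b, 0.203 for Pdcd2l, 0.18 for Akt1s1, 0.14 for Rheb, and 0.094 for both Eif3a and Larp1. Eif4a2 had -0.186.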

How the results depend on the processing

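Depth set the precision for Rpl39 and the 4 untested genes. The replicate numbers did not pair the libraries: deviations of same-numbered libraries correlated at -0.021 to 0.08 and of others at -0.061 to 0.066. With the replicate block, 70 members were higher with both agents against doxycycline and 0 were lower for dTAG-13 against control.

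For doxycycline against control, members called higher and lower were 2 and 5 with library size only. Called higher were 4 with no filter, 3 with only the groups compared and 0 after the length and GC correction, also when fitted without the members. DESeq2 gave 16 lower. For dTAG-13 against control, 0 were lower with library size only, with 1 CPM in 3 libraries and with DESeq2. The length and GC correction gave 18 higher, 10 lower and a median of 0.032, and fitted without the members, a choice made after the data were seen, 18, 10 and 0.034. When doxycycline plus dTAG-13 was set against doxycycline, it gave 46, 2 and 0.236, and without the members 47, 2 and 0.245. Against control it gave 37, 2 and 0.175, and without the members 37, 2 and 0.181. DESeq2 gave 36 members higher in the interaction and 38 where both agents were set against dTAG-13. The cause of these differences was not tested.

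Signs reversed in these cases. Library size only gave Rpl4 0.082 for dTAG-13 against control, where it moved the median of all genes to 0.11. The length and GC correction, all genes and then without the members, gave for dTAG-13 against control -0.013 and -0.012 for Rplp1, -0.097 and -0.096 for Rps27l, and -0.058 and -0.057 for Rpl8. It gave Rpl4 -0.101 and -0.100 against doxycycline alone. For doxycycline plus dTAG-13 against control it gave -0.009 and -0.003 for Rps27l and -0.058 and -0.057 for Rpl4. Of 2183 values of named members under the alternatives, 2017 kept their direction and side of the threshold. Of the 2183, 1200 came from leaving out single libraries, and 1111 of those did so. Fewer calls on members held in all alternatives other than leave-one-out. These were 20 of 43 for dTAG-13 against control, 45 of 73 against doxycycline alone and 5 of 11 for doxycycline against control.

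Leaving out each library gave 0 to 3 members higher and 4 to 13 lower for doxycycline against control, with medians of -0.086 to -0.012. For dTAG-13 against control it gave 31 to 46 higher and 0 to 1 lower, with medians of 0.167 to 0.271. The 1 lower was lost without control library 1 or 2 or dTAG-13 library 2 or 3. Higher counts with both agents were 67 to 73 against doxycycline, 20 to 32 against dTAG-13, 61 to 69 against control and 16 to 30 for the interaction.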
